A study of Mus musculus with 6 samples.

Results

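The PYHIN genes form a cluster on mouse chromosome 1 whose content and expression are known to vary between inbred strains. They were examined here in stimulated CD4 T cells labelled WT or AMPK KO. The knockout targets AMPKα1, the catalytic subunit of the energy sensor AMPK that is encoded by Prkaa1. The 9 genes, out of 23282 listed, were named by symbol: Pydc3, Pydc4, Aim2, Mnda, Mndal, Ifi203, Ifi204, Ifi205 and Ifi202b. They were picked with the difference between AMPK KO and WT already known, so that difference is described for them, and tests of it are not read as support. All 9 were found, and 8 passed the filter on low values, a mean of at least 1 on the log2 scale.

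The study had 3 WT and 3 AMPK KO samples, all labelled C57BL/6. In its methods, AMPK KO mice carried floxed Prkaa1 with CD4Cre, which acts in every descendant of a CD4-expressing thymocyte. WT mice carried the same floxed allele without CD4Cre. Mice were 6 to 8 weeks old. CD4 T cells were isolated from spleen and lymph nodes with microbeads or a sorter, rested for 1 h and were then stimulated with anti-CD3 and anti-CD28, at 2 µg/mL each, for 24 h by the labels and 6 h by the methods. Whether each sample was 1 mouse is not given in the sources used here, and p-values measure the spread between these samples only.

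RNA was read by QuantSeq, which counts the 3′ ends of transcripts. Values are given below as CPM, the authors' TMM-normalised read counts scaled to a common total, or as log2 of CPM plus 1, called the log2 level. Neither was divided by length. The samples are called WT1 to WT3 and AKO1 to AKO3, after their labels. Totals ran from 9575096 to 10168121 reads among WT samples, and from 10515155 to 11185360 among AMPK KO samples. Of these, Rn45s, the ribosomal RNA precursor, took 20.7% to 24.9% in WT and 8.48% to 10.8% in AMPK KO. Prkaa1 itself had 221 to 369 reads per WT sample and 188 to 291 per AMPK KO sample. Its groups overlapped, and the log2 fold change of -0.43 ± 0.25 (SE, n = 3 per group) was not past the threshold used below. Which exons are floxed is not given in the sources used here, so this is no check of the labels. The methods state female mice, yet Ddx3y, on the Y chromosome, stood at 346.3 to 368.1 CPM in WT and 120.7 to 154.7 in AMPK KO. Xist, made from the inactive X chromosome, stood at 0.904 to 3.47 in WT and 186.0 to 241.9 in AMPK KO. Each AMPK KO sample thus held both transcripts, while the WT samples held Ddx3y with little Xist. Whether AMPK KO samples mixed the sexes was not tested. Genotype and a difference between the groups in the sex or pooling of mice cannot be told apart here.

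Typical PYHIN proteins pair a pyrin domain, which binds other pyrin domains, with HIN domains, which bind DNA, though not every member has both. Aim2 senses DNA in the cytosol and starts an inflammasome through the adaptor Pycard, while Pydc3 and Pydc4 are named for their pyrin domains. Many genes of the family are induced by interferon, through the factors that bind the interferon-stimulated response element in promoters. The family is known mostly from macrophages and other myeloid cells, and several members are also transcribed in lymphocytes.

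All 9 genes matched RefSeq on GRCm38.p6, the assembly of the mm10 build that the submitters' processing notes name. From the lower coordinate, the order was Aim2 (chr1:173349547-173466040), Pydc4 (chr1:173566280-173599348), Pydc3 (chr1:173673628-173698393), Ifi204 (chr1:173747293-173767069), Mndal (chr1:173857215-173880382), Mnda (chr1:173896339-173913087), Ifi203 (chr1:173920400-173942866), Ifi202b (chr1:173962569-173982844) and Ifi205 (chr1:174011998-174031755). RefSeq calls Pydc3 Ifi208, Pydc4 Ifi213 and Mnda Ifi211.

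The promoters are shown because 6 of the 9 members have a short sequence in common there. RefSeq gave windows of 250 bases before to 50 after the transcription start for 8 of the 9 genes. The 6 below each carried the core of the interferon-stimulated response element, searched as GAAANNGAAA on both strands, and 150 bases before the start are printed 5′ to 3′ on the strand of the gene with the match in capitals. Of the windows RefSeq gives for Mndal and Ifi203, the one holding GAAATCGAAA is shown.
Pydc3, chr1:173673515-173673664, plus strand: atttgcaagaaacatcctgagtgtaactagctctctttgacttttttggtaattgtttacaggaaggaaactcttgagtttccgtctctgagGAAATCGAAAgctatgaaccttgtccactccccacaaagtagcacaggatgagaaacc
Pydc4, chr1:173599273-173599422, minus strand: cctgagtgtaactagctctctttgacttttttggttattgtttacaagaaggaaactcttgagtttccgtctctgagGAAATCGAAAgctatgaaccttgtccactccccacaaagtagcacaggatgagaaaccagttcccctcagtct
Mndal, chr1:173880188-173880337, minus strand: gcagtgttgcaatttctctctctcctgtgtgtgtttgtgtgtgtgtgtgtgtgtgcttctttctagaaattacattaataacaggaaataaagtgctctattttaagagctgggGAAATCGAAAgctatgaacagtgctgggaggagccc
Ifi203, chr1:173942493-173942642, minus strand: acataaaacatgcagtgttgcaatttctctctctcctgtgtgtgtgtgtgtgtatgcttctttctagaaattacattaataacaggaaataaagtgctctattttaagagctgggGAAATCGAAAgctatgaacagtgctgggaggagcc
Mnda, chr1:173913047-173913196, minus strand: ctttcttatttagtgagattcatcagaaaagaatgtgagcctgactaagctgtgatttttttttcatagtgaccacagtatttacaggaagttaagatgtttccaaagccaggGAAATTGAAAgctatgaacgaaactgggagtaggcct
Ifi205, chr1:174031756-174031905, minus strand: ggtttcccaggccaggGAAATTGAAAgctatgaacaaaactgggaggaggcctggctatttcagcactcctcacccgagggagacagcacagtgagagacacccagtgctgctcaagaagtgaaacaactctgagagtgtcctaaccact

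The match in capitals began 58 bases before the start in Pydc3, 73 in Pydc4, 36 in Mndal, 35 in Ifi203, 37 in Mnda and 134 in Ifi205. On the other strand there was 1 more match in Ifi205, 23 bases after the start, and 1 in the Mndal window that is not shown, 54 bases before its start. The windows of Aim2 and Ifi202b did not hold these letters. Among all 32851 RefSeq windows, 3.44% held GAAANNGAAA. Pydc3, Pydc4, Mndal and Ifi203 shared the exact letters GAAATCGAAA, and Mnda and Ifi205 had GAAATTGAAA instead. The exact form, singled out after the sequences had been read, was in 16 windows, of which 7 lay among the 15 windows of this cluster. They belong to Pydc3, Pydc4, Mndal, Ifi203 and to 3 more genes of the family, Ifi206, AI607873 (RefSeq Ifi207) and Ifi214. A second motif, TTCNNNGAA, the core bound by STAT factors, was in the window of Ifi202b alone among the 8 and in 8.30% of all windows. In global alignment, the printed promoter of Pydc3 was 80.6% identical to that of Pydc4, and that of Mndal 85.7% to that of Ifi203. The other pairs were 45.1% to 59.7% identical. A match of letters is not a site shown to be bound.

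Some of these genes share sequence at their transcript ends, which limits how surely their reads can be assigned. In the annotation GENCODE M21, 77.4% of the 50-base stretches in the last 500 bases of Mnda also occurred in another gene, in each case Ifi205. For Ifi205 the share was 79.2%, all with Mnda. Pydc3 shared 14.4% of its stretches with Pydc4, and Pydc4 shared 17.6% with Pydc3. The share was 18.7% in Mndal, 2.22% in Ifi204, 1.11% in Ifi203, 0.822% in Aim2 and 0 in Ifi202b. The GENCODE model of Mndal also runs across Mnda and Ifi203 on the same strand. That of Aim2 overlaps Cadm3 on the opposite strand, and strand use in counting is not given in the sources used here. Levels of Mnda and Ifi205 are therefore uncertain against each other, and those of Mndal, Mnda and Ifi203 where a count could fall in the long Mndal model.

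In AMPK KO, Pydc3 and Pydc4 stood far below WT, Mndal stood slightly below, and the other detected members overlapped between the groups. Of the 8 members tested by limma over 11279 genes, 2 were past an adjusted p of 0.05, beside 5.65% of all genes, and both were lower in AMPK KO, beside 3.10% of all genes. In the other direction it was 0 of 8, beside 2.54% of all genes, and 0 members were higher at an unadjusted p under 0.05 or with voom. In 3 members, the 3 AMPK KO values all lay below the 3 WT values, beside 14.0% of all genes, or 25.6% counting either direction. The 2 members past the threshold became 1 without WT1, WT3 or AKO1, and with the replicate number as a block. The members were chosen on this contrast, so nothing is read from these counts. Over the 8, the median log2 fold change was -0.15, while over all genes it was 0.02 with quartiles of -0.28 and 0.34. With values rescaled to the reads outside Rn45s, the share of all calls that were higher in AMPK KO was 32.2% rather than 45.1%, and the median of all genes was -0.05. That share was 55.9% without WT1, 54.9% without WT2, 54.1% without WT3, 53.3% without AKO2 and 56.2% with no trend of the spread.

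**Figure D1:**
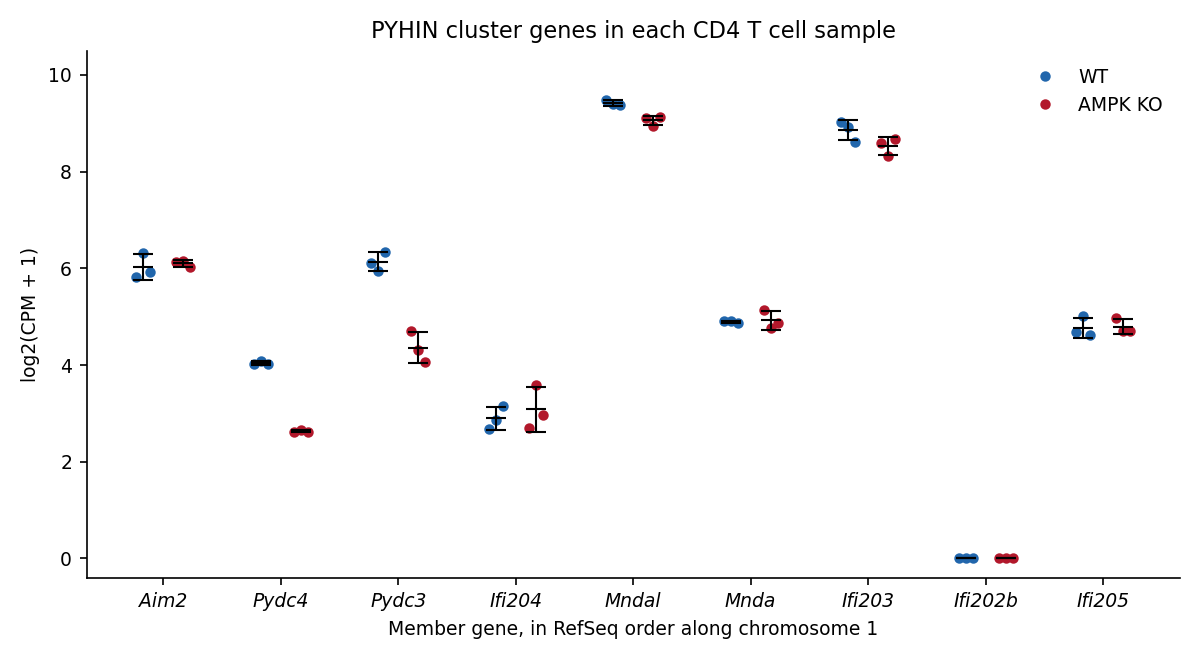
Log2 level of each of the 9 genes (y axis, log2 of CPM plus 1) in the 3 WT (blue) and 3 AMPK KO (red) samples, in chromosomal order. Black bars are the mean ± SD; Pydc4 and Pydc3 separate widely, Mndal narrowly, and Ifi202b is at 0 in all 6 samples.

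Pydc3 had log2 levels of 6.12, 5.95 and 6.34 in WT and of 4.70, 4.32 and 4.06 in AMPK KO. The lowest WT sample lay well above the highest AMPK KO sample. The log2 fold change was -1.77 ± 0.22 (SE, n = 3 per group), and the mean of AMPK KO was 28.5% of WT in CPM. Of the 11279 genes, 14 had a more negative log2 fold change. The values rest on 607 to 707 reads per WT sample and 187 to 296 per AMPK KO sample. Over 15 alternative settings the log2 fold change was -1.94 to -1.63.

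Pydc4, whose printed promoter was the closest to that of Pydc3, had log2 levels of 4.03, 4.09 and 4.02 in WT and of 2.62, 2.66 and 2.62 in AMPK KO. The groups were again fully apart. The log2 fold change was -1.42 ± 0.29 (SE, n = 3 per group), and AMPK KO stood at 33.5% of WT in CPM. Depth was lower here, with 135 to 160 reads per WT sample and 57 to 61 per AMPK KO sample. The SD between samples was 0.036 in WT and 0.023 in AMPK KO, which is less than the 0.11 and 0.16 that read counting alone would give. The SE of the fit, which borrows the spread of other genes, is the wider error. Over 15 alternative settings the log2 fold change was -1.57 to -1.39. Pydc4 was past the threshold in 11 of the 15, but not without WT1, WT3 or AKO1, nor with the replicate number as a block.

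Mndal and Ifi203, whose printed promoters resembled each other most, were the most abundant members. Mndal had log2 levels of 9.49, 9.39 and 9.38 in WT and of 9.10, 8.94 and 9.13 in AMPK KO. The groups did not overlap, and the log2 fold change was -0.36 ± 0.13 (SE, n = 3 per group), not past the threshold. Ifi203 had log2 levels of 9.02, 8.92 and 8.62 in WT and of 8.60, 8.32 and 8.67 in AMPK KO. WT3 lay below AKO3, so the groups overlapped. Its log2 fold change was -0.33 ± 0.15 (SE, n = 3 per group), also not past the threshold. Both were lower in AMPK KO under all 15 alternatives, and both counts are high, at 5275 to 6698 reads for Mndal and 3428 to 4833 for Ifi203.

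Aim2, the DNA sensor, had log2 levels of 5.82, 6.33 and 5.92 in WT and of 6.13, 6.16 and 6.02 in AMPK KO. All 3 AMPK KO samples lay within the WT range, and the log2 fold change was 0.08 ± 0.18 (SE, n = 3 per group). Leaving out WT1 turned its sign, to -0.02.

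Mnda had log2 levels of 4.91, 4.91 and 4.87 in WT and of 5.15, 4.76 and 4.86 in AMPK KO. The AMPK KO values fell on both sides of WT, with a log2 fold change of 0.03 ± 0.21 (SE, n = 3 per group). Ifi205, which shares most of its 3′ end with Mnda, had log2 levels of 4.68, 5.01 and 4.63 in WT and of 4.97, 4.71 and 4.70 in AMPK KO. Its AMPK KO values all lay inside the WT range, with a log2 fold change of 0.02 ± 0.22 (SE, n = 3 per group). The sign of the small difference turned in 2 of 15 alternatives for Mnda and in 4 for Ifi205, scaling to the reads outside Rn45s among them.

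Ifi204, another sensor of DNA, had the fewest reads of the detected members in WT, and 50 to 119 reads per sample over both groups. Its log2 levels were 2.68, 2.87 and 3.16 in WT and 2.70, 3.60 and 2.97 in AMPK KO. The groups overlapped, AKO2 stood highest, and the log2 fold change was 0.18 ± 0.35 (SE, n = 3 per group). It turned to -0.07 in 1 of the alternatives. Ifi202b, known to be little expressed in C57BL/6, had 0 reads in all 6 samples. Taking 3 reads as the limit, a count of 0 allows up to 0.339 CPM in the shallowest library, WT3, and 0.252 in the deepest, AKO3. This covers counting error only.

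In CPM, the order of the members changed between the groups at Pydc3 and Pydc4. In WT it ran from Mndal (684.3 ± 29.4; SD, n = 3) and Ifi203 (464.8 ± 65.4) to Pydc3 (69.7 ± 9.70), Aim2 (64.8 ± 12.7), Mnda (28.8 ± 0.453), Ifi205 (26.5 ± 4.02), Pydc4 (15.5 ± 0.420) and Ifi204 (6.55 ± 1.26). Pydc3 and Aim2 did not differ beyond their spread there, nor did Mnda and Ifi205. In AMPK KO, Mndal (533.1 ± 36.9) and Ifi203 (369.9 ± 45.0) again led. They were followed by Aim2 (67.9 ± 3.41), Mnda (29.5 ± 4.36), Ifi205 (26.8 ± 3.08), Pydc3 (19.9 ± 4.70), Ifi204 (7.79 ± 2.93) and Pydc4 (5.20 ± 0.0975). Mnda and Ifi205 did not differ beyond their spread, nor did Ifi204 and Pydc4. Summed over the 9 genes, the level was 1361 ± 82.9 CPM in WT and 1060 ± 80.5 in AMPK KO. Mndal and Ifi203 made up 84.4% ± 1.60 of that sum in WT and 85.1% ± 1.65 in AMPK KO.

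The files list 3 more PYHIN genes, which were not among those picked but are known to belong to the same cluster. Pyhin1, called Ifi209 in RefSeq, lies between Pydc4 and Pydc3 (chr1:173630859-173647928). It had log2 levels of 6.58, 6.24 and 6.79 in WT and of 5.91, 5.87 and 5.75 in AMPK KO. The groups did not overlap, and Pyhin1 fell with a log2 fold change of -0.69 ± 0.18 (SE, n = 3 per group; limma, adjusted p = 0.0347). Over the alternatives its adjusted p was 0.0172 to 0.195, and 8 of 15 were past the threshold. The call was lost without WT1 (0.153), WT3 (0.195), AKO1 (0.111) or AKO3 (0.0766), and with the replicate block (0.147).

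BC094916, which matched no RefSeq entry used here, had log2 levels of 5.16, 4.32 and 4.96 in WT and of 3.74, 4.11 and 3.35 in AMPK KO. The lowest WT sample stood just above the highest AMPK KO sample. BC094916 fell with a log2 fold change of -1.08 ± 0.29 (SE, n = 3 per group; limma, adjusted p = 0.0441), and the adjusted p was 0.0108 to 0.222 over the alternatives, past the threshold in 7 of 15. Leaving out WT1 gave 0.222, WT3 0.182, AKO1 0.136 and AKO3 0.113. With the replicate block it was 0.159. Of the 50-base stretches at the 3′ end of Pyhin1, 63.4% also occurred in Ifi214.

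AI607873 lies between Pydc3 and Ifi204 (chr1:173723424-173741831) and carries GAAATCGAAA as Pydc3 does. Its log2 levels were 3.34, 1.81 and 2.94 in WT and 3.20, 2.50 and 3.58 in AMPK KO. The groups overlapped, with a log2 fold change of 0.40 ± 0.43 (SE, n = 3 per group; limma, adjusted p = 0.643). The window of Pyhin1 did not hold GAAANNGAAA. No test here relates these letters to the difference between the groups.

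**Figure D2:**
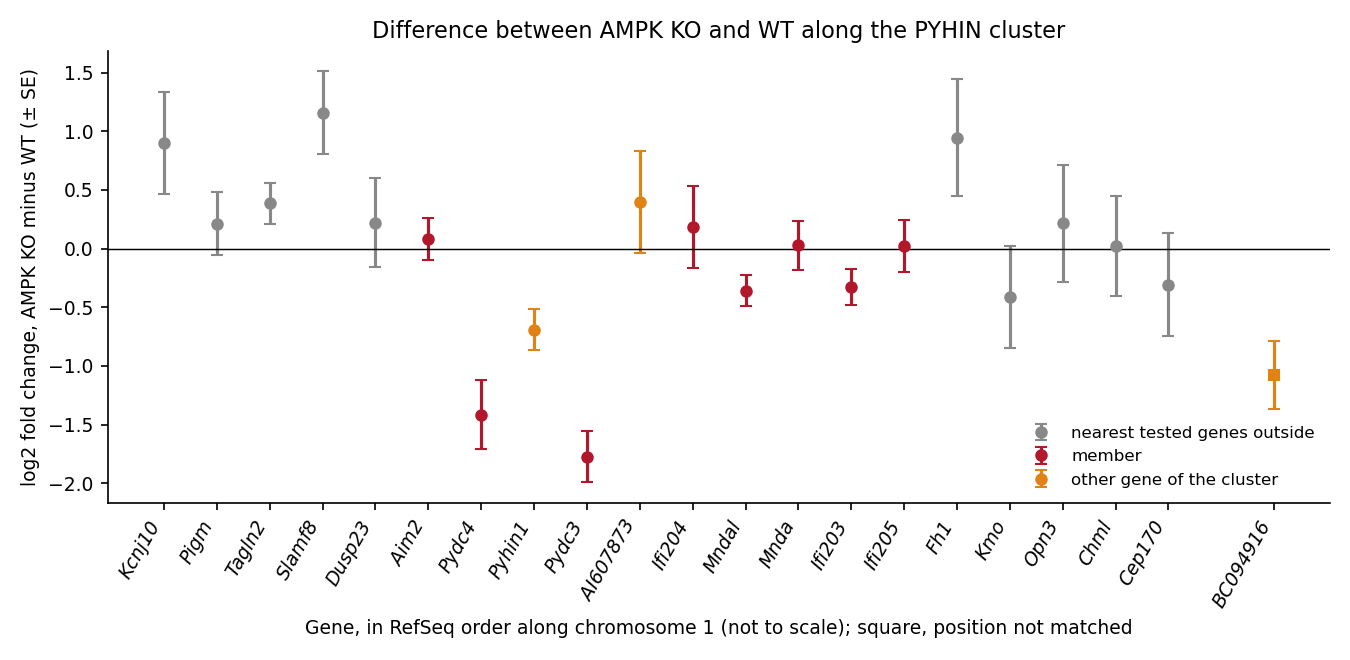
Log2 fold change of AMPK KO against WT (y axis, ± SE, 3 samples per group) for the detected genes of the cluster in RefSeq order along chromosome 1, with the 5 nearest tested genes on each side (grey). Members are red and other cluster genes orange; BC094916 (square) was not placed. Pydc4, Pyhin1 and Pydc3 lie side by side and lowest among the placed genes.

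Pydc4, Pyhin1 and Pydc3 thus adjoin each other among the detected genes with a RefSeq position, with Aim2 on one side and AI607873 and Ifi204 on the other showing no such difference. The closest genes beyond the cluster were nearly silent in these cells. Of the 10 listed genes before Aim2, 8 were at 0 in all samples, as were 9 of the 10 after Ifi205, and none of these 20 passed the filter. The nearest 10 tested genes on each side were taken after this was seen. They lay 716.6 to 1227 kb before the cluster, with log2 fold changes of -0.46 to 1.16, and 1570 to 3731 kb after it, with -0.65 to 0.95. By limma, 0 of these 20 were past the threshold, and with voom also 0. By limma, 3 before and 1 after had an unadjusted p under 0.05. The share of all genes under that unadjusted p is not given here, so nothing is read from these counts.

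Once the group means had been removed, samples that were high in one member were not generally high in the others. These correlations are over 6 samples that share their libraries and scaling, and are given as a description. The strongest were between Pydc4 and AI607873 (r = -0.955), Aim2 and AI607873 (r = -0.921) and Aim2 and Pydc4 (r = 0.895). Those with Pydc4 rest on a spread between samples below that of read counting. Mndal and Ifi203 deviated together (r = 0.855), and Ifi204 opposed Mndal (r = -0.883), Ifi203 (r = -0.855) and Mnda (r = -0.826). Aim2 deviated with Ifi205 (r = 0.791). For Pydc3, r was 0.716 with its neighbour Pyhin1 and -0.394 with Pydc4.

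Across all 6 samples, group difference included, the tested genes most like Pydc3 were Snord89 (r = 0.9997), Vgll4 (0.9956), Mphosph9 (0.9951), Tgoln2 (0.9950) and Fam208b (0.9934). The samples fall into the 2 groups, so this mostly ranks genes that are lower in AMPK KO. Within the cluster, Pydc4 ranked 85 (r = 0.968), Pyhin1 181 (0.949), Mndal 485 (0.902) and BC094916 584 (0.886). The other genes of the cluster were less like it, with Ifi203 at rank 2144 (0.636), Mnda at 5334 (0.037), Ifi205 at 5743 (-0.045), AI607873 at 7062 (-0.288), Aim2 at 7066 (-0.289) and Ifi204 at 7219 (-0.318).

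**Figure D3:**
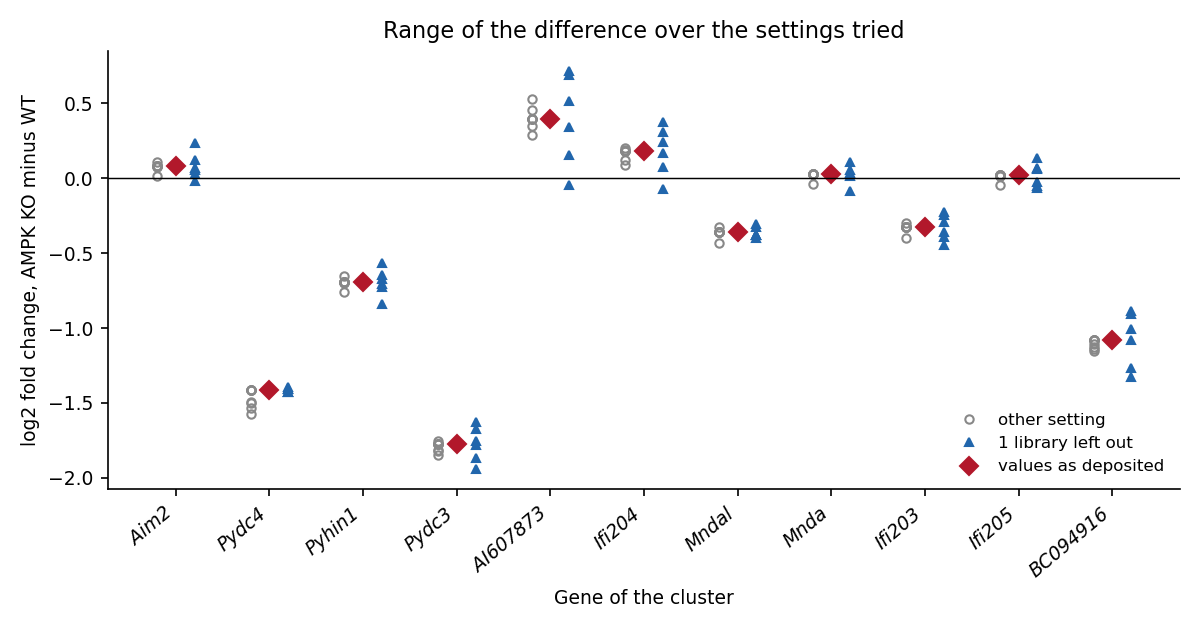
Log2 fold change of AMPK KO against WT (y axis) for each detected gene of the cluster, with the values as deposited (red diamonds), under the other settings (grey circles) and with 1 library left out (blue triangles). Pydc3 stays between -1.94 and -1.63 and Pydc4 between -1.57 and -1.39, while Aim2, Mnda, Ifi205, Ifi204 and AI607873 cross 0.

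Since PYHIN genes are known interferon targets, the same contrast was examined over 45 other interferon-stimulated genes, 44 of them tested. In this list, 32 had a negative and 12 a positive log2 fold change, with a median of -0.26 beside 0.02 over all genes. By limma, 4 fell, where 3.10% of all genes did. These were Rtp4, a chaperone of receptors (-0.90 ± 0.22; SE, adjusted p = 0.0313), the RNA sensor Ddx58 (-0.75 ± 0.19; adjusted p = 0.0324), Parp9, a modifier of interferon signalling (-0.74 ± 0.19; adjusted p = 0.0328), and Trim30a, of the TRIM family (-0.60 ± 0.14; adjusted p = 0.0266). Isg15, the ubiquitin-like modifier, rose by 0.88 ± 0.21 (SE; adjusted p = 0.0275). A promoter window of Ddx58 was among the 16 with GAAATCGAAA, and none of Rtp4, Parp9, Trim30a or Isg15 was. The 4 lower calls became 0 without WT1, WT3 or AKO1, and with the replicate block. They became 2 without WT2 and 1 without AKO3. The call on Isg15 was lost without WT1, WT3, AKO1 or AKO3, and with the replicate block.

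Among 15 interferon receptors and signalling genes, 8 log2 fold changes were positive and 7 negative, with a median of 0.00. Socs1, a feedback inhibitor of JAK kinases, rose by 2.13 ± 0.48 (SE; limma, adjusted p = 0.0196), and Irf1, a factor induced by interferon-γ, rose by 0.81 ± 0.13 (SE; adjusted p = 0.00336). For Socs1 the groups overlapped, with a log2 level of 4.97 in WT2 and 4.78 in AKO2. Jak1, a kinase of interferon receptors, fell (-0.59 ± 0.15; SE, adjusted p = 0.0383). Of all genes, 2.54% were past the threshold as higher and 3.10% as lower. The higher calls became 1 without WT1, WT3 or AKO1, and with voom, a robust spread or no filter. They became 0 with the replicate block or no trend of the spread, and 3 without WT2 or AKO2. The lower call was lost without WT1, WT3 or AKO1, and with the replicate block, no filter or no trend of the spread. There were 2 lower calls without AKO2, with scaling to the reads outside Rn45s and with a filter at a mean of 3. Of the interferons themselves, Ifng rose from 3.36 to 16.1 CPM in WT to 25.1 to 35.0 in AMPK KO (limma, adjusted p = 0.0231), whereas Ifnb1 and Ifna4 had 0 reads in all samples. The call on Ifng held in 9 of 15 alternatives, over which its adjusted p was 0.00602 to 0.128. It was lost without WT1 (0.0867), WT3 (0.0809) or AKO1 (0.0931), and with the replicate block (0.0696).

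For the pathway that Aim2 feeds, 13 inflammasome genes were listed and 12 tested. In 10 of them the log2 fold change was positive, with a median of 0.56. Il18 (1.33 ± 0.27; SE, adjusted p = 0.0112), Casp4 (1.24 ± 0.29; adjusted p = 0.0229) and Il1b (0.96 ± 0.14; adjusted p = 0.00160), all known from myeloid cells, rose by limma, beside 2.54% of all genes. The adaptor Pycard was at 0.15 ± 0.19 and the protease Casp1 at 1.21 ± 0.38, neither past the threshold. The 3 calls became 1 without WT3 or AKO1, and with the replicate block. In 15 tested genes of cytosolic nucleic acid sensing the median was -0.06. One call was made, on the exonuclease Trex1, which rose by 0.84 ± 0.23 (SE; limma, adjusted p = 0.0477). It was lost in 11 of 15 alternatives, among them leaving out WT1, WT2, WT3 or AKO1, voom and the replicate block.

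Among markers of other cells, which the isolation of CD4 T cells is meant to remove, only myeloid ones included genes past the threshold by limma. All 15 myeloid markers had a positive log2 fold change, and 8 rose, where 2.54% of all genes did. Among the 8 were Cd14 (1.87), C1qa (1.85) and C1qc (1.51). None was at 0 in all samples, and their summed level was 547.9 to 593.9 CPM in WT and 925.5 to 1687 in AMPK KO. Of 13 T cell markers, 12 had a negative log2 fold change and 4 fell, where 3.10% of all genes did. The 4 were Tcf7 (-1.66), Cd3g (-0.93), Cd3e (-0.66) and Cd28 (-0.56). The sum of the 13 was 3285 to 3505 in WT and 2534 to 2984 in AMPK KO. The myeloid calls became 4 without WT1 and 5 without AKO1, and with the replicate block they were 4. The T cell calls became 1 without WT1 or with the replicate block, and 2 without WT3, AKO1 or AKO3. Of 11 tested B cell markers, 2 of CD8 T cells and 3 of NK cells, 0 were past the threshold by limma or voom, and 1, 2 and 1 had an unadjusted p under 0.05. Nothing is read from the unadjusted counts, as the share of all genes is not given here. The B cell sums were 363.7 to 402.2 in WT and 373.7 to 418.7 in AMPK KO, and those of NK cells 11.1 to 32.4 and 16.7 to 51.1. The sums of the CD8 T cell markers did not overlap, at 230.7 to 305.2 in WT and 321.3 to 376.1 in AMPK KO, and both genes had a positive log2 fold change (median 0.36). In bulk RNA, fewer cells of a type and less RNA per cell cannot be told apart. The part of these cell markers in the levels of the PYHIN genes was not tested.

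**Figure D4:**
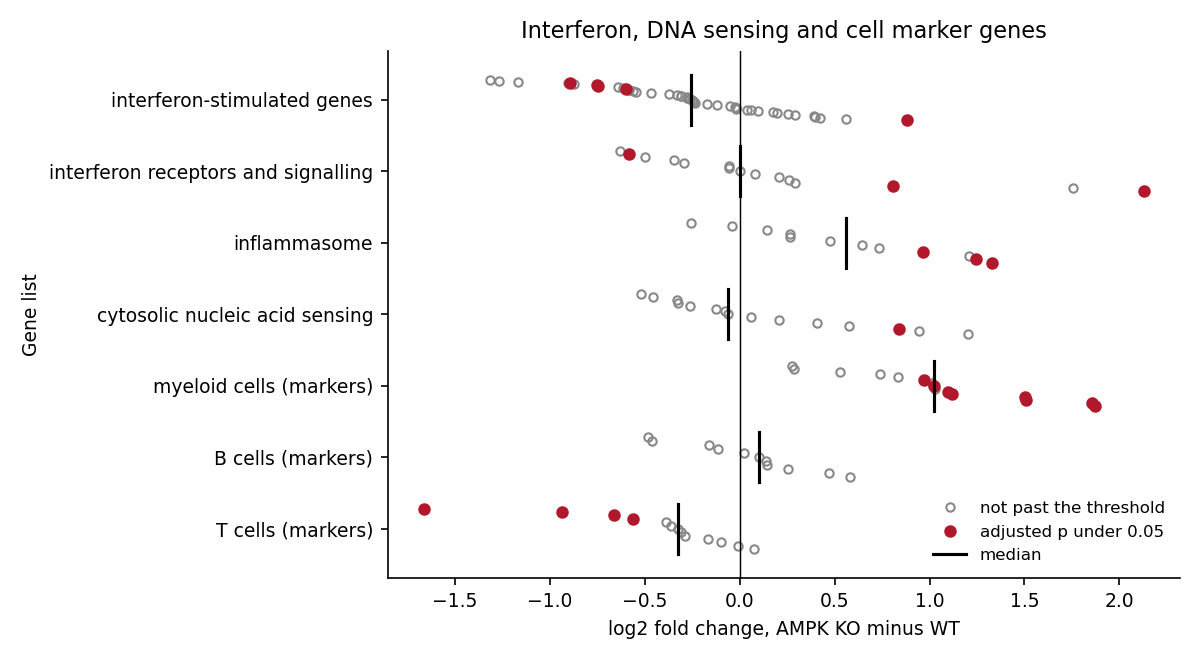
Log2 fold change of AMPK KO against WT (x axis) for each tested gene of 4 pathway lists and 3 marker lists (y axis), with genes past an adjusted p of 0.05 in red, others open, and the median of each list as a black line. Interferon-stimulated genes centre on -0.26, inflammasome genes on 0.56 and myeloid markers on 1.02.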

How the data were processed

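RNA of 3 WT and 3 AMPK KO samples was sequenced by QuantSeq 3′ from 500 ng of RNA, and the groups were taken from the labels. The authors deposited log2 values, log2 of reads normalised by TMM and CPM plus 1. The submitters' processing notes name Bowtie2, bedtools and mm10. Versions, annotation and strand setting are not given in the sources used here. All values worth at most 100 reads (100%) were whole multiples of a library's step to within 0.1 read, so reads and depth were recovered.

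Genes with a mean log2 of at least 1 (11279 of 23282) were fitted with limma 3.58.1 in R 4.3.3 (lmFit, eBayes with trend, genotype only). Tests were two-sided, with Benjamini-Hochberg adjustment over these genes and a threshold of 0.05. The code was tested on simulated data. An exact permutation test cannot go below 0.1 here. No symbol of a PYHIN gene was among the 35 that occur more than once, on 79 lines. Every member is named, as are other cluster genes, called list genes (at most 4 per direction) and the 5 genes most like Pydc3. Members and lists were chosen with earlier results of these data known. Promoters are from RefSeq on GRCm38.p6, and transcript ends from GENCODE M21. Alternatives were 15 settings of scaling, filter, spread, pseudocount, block, voom and left-out samples, and an adjusted p of 0.01.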

Additional observations from a re-analysis of the deposited data

How the results depend on the processing

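Genes past the threshold numbered 637, of 11279, as deposited, 308 with no filter on low values, 73 with no trend of the spread, 182 at an adjusted p of 0.01, and 127 to 1243 with 1 sample left out (WT1 gave 127, WT3 133, AKO1 173 and AKO2 1243). The members lower past the threshold were 2, and 1 at an adjusted p of 0.01 and without WT1, WT3 or AKO1 (range 1 to 2 over the 6 fits that left a sample out). The cause was not tested. With the replicate number as a block, 102 genes were past the threshold and 1 member, Pydc3. Same-numbered samples did not deviate together (r = -0.225, -0.532 and -0.308 over 6143 genes; -0.261 to 0.456 for the other pairs of a WT and an AMPK KO sample), and the numbers were not taken to pair the samples. The median log2 fold change of the members was -0.33 to -0.13 over 15 alternatives. Over the alternatives, lower calls numbered 0 to 6 among interferon-stimulated genes and 1 to 6 among T cell markers, and higher calls 0 to 3 among inflammasome genes and 0 to 9 among myeloid markers. With no trend of the spread, 0 of the interferon-stimulated, signalling, inflammasome or myeloid genes were past the threshold. No called gene of the cluster (Pydc3, Pydc4, Pyhin1 and BC094916) reversed. The log2 fold change of Pydc4 was -1.49 with quantile normalization, -1.50 scaled to reads outside Rn45s, -1.57 with voom and -1.53 with a pseudocount of 0.25, beside -1.42. The deposited scale adds 1 before the log, which understates the change of low genes such as Pydc4. Depth limits Ifi204 and AI607873, with 25 to 130 reads per sample, and Ifi202b, with none.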
